A study of Mus musculus with 1279 samples.

Results

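Ectonucleotidases and purine receptors were followed through single cells of the adult mouse heart, 926 fibroblasts of clusters 1 to 5 and 353 cells of clusters 6 to 8. The labels give clusters a number only. Clusters 1 to 5 are fibroblasts in the study's text, and clusters 6 to 8 are called mural cells here, the cells that wrap vessels, after their markers. The genes are Entpd1, Entpd2, Nt5e, Enpp1, Enpp2, Enpp3, Alpl, P2rx1, P2ry1 and P2ry14, 10 of the 46517 genes in the count table, and all 10 were found there by symbol. They were chosen with earlier results of these data known. Fibroblasts of clusters 2 to 5 carried high Entpd2 and Enpp2, with Enpp3 and P2ry1 at lower levels. The mural cells divided the family in another way: clusters 6 and 7 carried high Entpd1, and cluster 8 carried high P2ry14 in 3 of 4 strains with almost no Entpd1. In the 3 strains with both clusters, Entpd1 was 4.13 ± 4.01 (SD, n = 3 strains) in cluster 8 and 861 ± 25.7 in cluster 7, in counts per 1000000 counts of the summed cells (CPM).

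Each sample was 1 cell, prepared by Smart-seq2, in which cDNA of whole transcripts is amplified in the wells of a plate and duplicate molecules cannot be recognised. The mice were adult males aged 10 to 20 weeks, backcrossed to C57Bl6/J, and the labels gave each cell a strain and a cluster number. C57BL6 mice, whose cells were sorted with antibodies against PDGFRα or PDGFRβ, gave 581 cells (45.4%), PdgfrbGFP gave 364 (28.5%), Cspg4dsRED gave 12.7% and Acta2GFP gave 13.4%. The last 3 strains carry the transgenes Tg(Pdgfrb-eGFP)JN169Gsat/Mmucd, Tg(Cspg4-DsRed.T1)1Akik/J and Tg(Acta2-GFP)1Pfk, so their sorts took whichever cells expressed the reporter, and CD31-positive endothelial cells were gated out. Elastase was added to the dissociation for Acta2GFP. Strain, sort, dissociation and plate cannot be told apart, except that C57BL6 lay on 3 plates, 1 of them with 1 cell and 1 with all its cells of clusters 6 to 8. The labels name no animal, so counts were summed per strain and the strain was the replicate. P-values then measure the spread between these sums. The study drew the clusters from the same counts, so no test between clusters is independent of how they were drawn.

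The clusters held from 39 cells (cluster 6) to 22.8% of all cells (cluster 5). A cell had a median of 274504 counts (range 46268 to 1302397), and 0 columns were identical. Cluster 8 was the shallowest, with a median of 167874 counts per cell. Summed over the fibroblast markers Pdgfra, Col1a1, Col1a2, Dcn and Lum, each strain had 10590 to 14489 CPM in clusters 1 to 5, 3108 to 12491 CPM in cluster 6, 309 to 777 CPM in cluster 7 and 960 to 3334 CPM in cluster 8. Smooth muscle markers summed to 9946 to 13384 CPM in cluster 6, 10670 to 15717 CPM in cluster 7 and 201.1 to 4033 CPM in cluster 8, and pericyte markers were highest in cluster 8 (6942 to 23596 CPM). The general mural markers Notch3, Des, Mcam, Cspg4 and Rgs5 summed to 5658 to 10826 CPM in cluster 7, 5239 to 11764 CPM in cluster 8 and 781 to 2446 CPM in cluster 6, against 42.5 to 729.8 CPM in clusters 1 to 5. Cluster 6 thus had markers of both fibroblasts and smooth muscle, and the name mural is less certain for it than for clusters 7 and 8. Of 7 endothelial markers, Tie1 was under 1 CPM in each cluster and Cdh5 in each but cluster 1, and the summed list reached at most 277.5 CPM. Of 6 immune markers, Ptprc and Cd3e were under 1 CPM in each cluster, and the summed list reached 184.5 CPM in cluster 7 of PdgfrbGFP, all of it Lyz2 from 1 cell, and at most 40.9 CPM elsewhere. Schwann cell markers summed to at most 8.83 CPM. The 9 cardiomyocyte markers summed to 1334 to 1965 CPM in cluster 7, 6.86 to 1541 CPM in cluster 6 and 189.7 to 409 CPM in cluster 8, against 12.03 to 327 CPM in clusters 1 to 5. In cluster 7, Pln, which smooth muscle also expresses, made up 1062 to 1276 CPM of it, and Myh6, the cardiac myosin gene, was 0 to 37.6 CPM. The mural cells of the strains were different mixtures. C57BL6 had 3, 1 and 33 cells in clusters 6, 7 and 8, PdgfrbGFP had 9 in cluster 7 and the rest in cluster 8, Cspg4dsRED had 33, 75 and 29, and Acta2GFP had 3, 33 and 15.

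Cells release ATP and other nucleotides when they are stretched, damaged or stimulated, and the nucleotides act on P2 receptors of nearby cells. Ectonucleotidases on the cell surface end or convert that signal: ENTPD enzymes cut ATP and ADP towards AMP, NT5E (CD73) makes adenosine from AMP, ENPP1 and ENPP3 cut ATP to AMP and pyrophosphate, and tissue-nonspecific alkaline phosphatase, the product of Alpl, cleaves pyrophosphate and phosphomonoesters. ENPP2 (autotaxin) belongs to the same family by sequence but mainly makes lysophosphatidic acid. In the heart and its vessels the pathway is known for its part in vessel tone, in holding back platelets and in the control of calcification.

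On GRCm38, Enpp1 (chr10:24637914-24712159) and Enpp3 (chr10:24772406-24842823) are neighbours on the minus strand, and P2ry14 (chr3:59113855-59153618, minus strand) and P2ry1 (chr3:61002795-61008982, plus strand) share chromosome 3. Entpd1 (chr19:40612366-40741602) and Entpd2 (chr2:25395874-25401321), both on the plus strand, encode related enzymes. Clusters 7 and 6 had the highest means of Entpd1 and the lowest of Entpd2. The sequence around the start of each gene is shown, from 250 bases before to 50 bases after a RefSeq start on GRCm38.p6, for Entpd1 the first of 2. Capitals mark motif matches on either strand. The motifs searched were the GC box GGGCGG, the TATA box TATAAA, the letters TGGGAA (the core that RBPJ binds in Notch target genes), the CCAAT box, and the CArG box of smooth muscle genes.
Entpd1, chr19:40612116-40612415: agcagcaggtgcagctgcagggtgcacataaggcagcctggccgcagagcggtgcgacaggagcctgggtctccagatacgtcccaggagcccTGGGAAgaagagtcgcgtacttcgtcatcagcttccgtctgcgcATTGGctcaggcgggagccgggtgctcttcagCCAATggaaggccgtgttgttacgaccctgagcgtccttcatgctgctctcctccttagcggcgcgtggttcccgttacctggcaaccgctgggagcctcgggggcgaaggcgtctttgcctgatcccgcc
Entpd2, chr2:25395624-25395923: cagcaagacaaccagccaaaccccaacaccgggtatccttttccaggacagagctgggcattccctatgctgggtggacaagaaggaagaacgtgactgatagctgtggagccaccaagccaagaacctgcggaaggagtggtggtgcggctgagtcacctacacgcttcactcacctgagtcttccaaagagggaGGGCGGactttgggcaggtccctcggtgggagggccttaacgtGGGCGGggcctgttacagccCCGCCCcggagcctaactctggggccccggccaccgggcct
The Entpd2 window held 3 matches to the GC box and none to the other 4 motifs. The Entpd1 window held 2 matches to the CCAAT box and 1 to TGGGAA. RefSeq gives Entpd1 a second start, whose window (chr19:40659520-40659819) held 1 match to the CCAAT box and 0 to the other motifs. Over all 32851 promoter windows in the RefSeq table, 35.7% held the GC box, 37.4% the CCAAT box, 25.6% the letters TGGGAA, 13.6% the TATA box and 1.63% a CArG box. Of the 10 genes 9 had an entry, with 14 windows in all, and 0 of these held a CArG box. A match describes letters only.

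**Figure D1:**
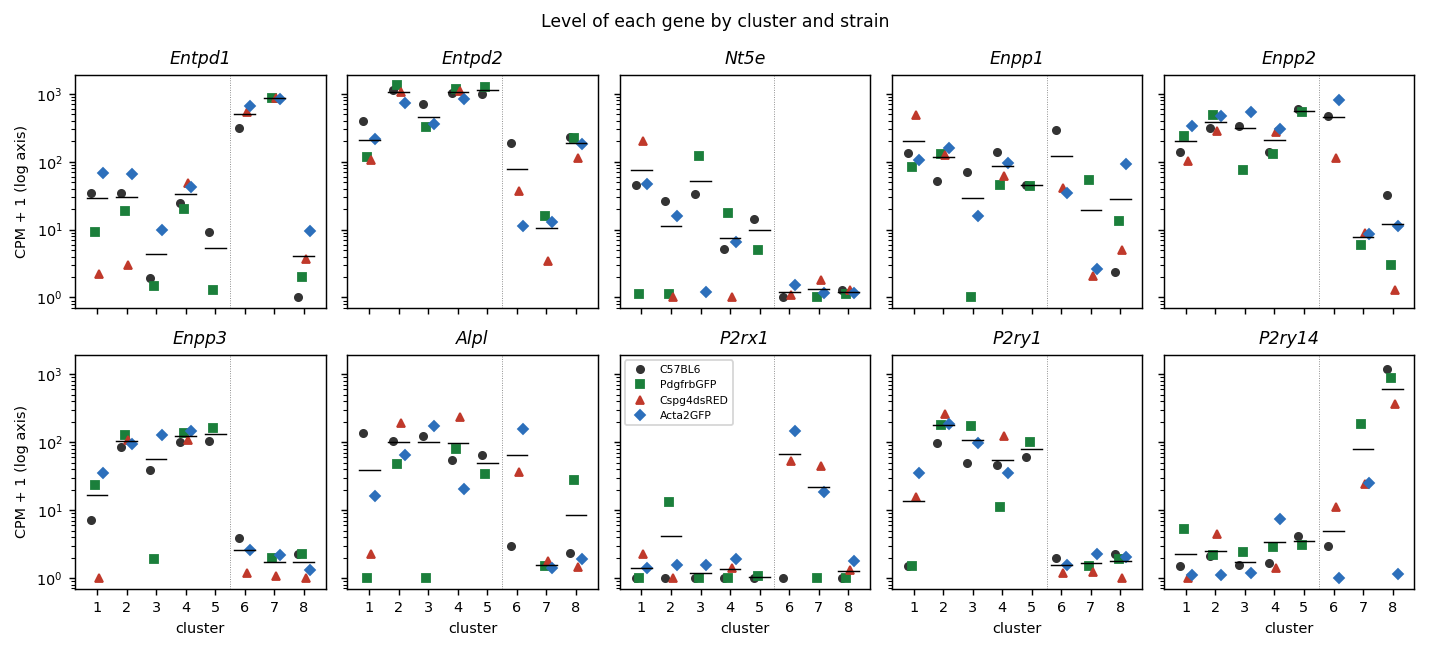
CPM + 1 on a log axis for each gene (panels) in clusters 1 to 8; each symbol is the sum of the cells of 1 strain in 1 cluster with 3 cells or more, the short line is the mean over strains, and the dotted line parts fibroblast from mural clusters. Entpd1 is high in clusters 6 and 7, P2ry14 is high in cluster 8 with Acta2GFP at the bottom, and Entpd2 is above 100 CPM in each fibroblast sum.

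Entpd1, which encodes CD39, the enzyme that turns ATP and ADP into AMP, was highest in clusters 6 and 7. In cluster 7 its level in PdgfrbGFP, Cspg4dsRED and Acta2GFP was 874, 878 and 832 CPM. The PdgfrbGFP value came from 4 of 9 cells, and the other 5 had 0 or 1 count. Cluster 6 followed with 309, 545 and 656 CPM in C57BL6, Cspg4dsRED and Acta2GFP, a range below that of cluster 7, and Enpp2 was above Entpd1 there in C57BL6 (471 CPM) and Acta2GFP (801 CPM). These are also the clusters in which summed cardiomyocyte markers were highest, and their part in the Entpd1 level was not tested. The C57BL6 value came from 1 of 3 cells. In cluster 8 Entpd1 was listed at 0 in the 33 C57BL6 cells, where 3 counts would have been 0.407 CPM, and PdgfrbGFP, Cspg4dsRED and Acta2GFP had 1.02, 2.70 and 8.66 CPM. The fibroblast clusters lay between, with means from 3.40 CPM (cluster 3) to 32.8 CPM (cluster 4), but each of them overlapped its neighbour in rank, and cluster 3 overlapped cluster 8. Their highest sums were those of Acta2GFP in clusters 1 and 2 (67.6 and 65.5 CPM).

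Entpd2, whose enzyme prefers ATP to ADP, had its lowest means in clusters 7 and 6, where Entpd1 was highest. Mean levels were 1128 ± 182.6 CPM (SD, n = 2) for cluster 5, 1070 ± 249.1 CPM (n = 4) for cluster 2 and 1047 ± 140.8 CPM (n = 4) for cluster 4, and their ranges overlapped. Cluster 3 stood below all 3, at 697, 326 and 355 CPM in C57BL6, PdgfrbGFP and Acta2GFP. Cluster 1 had 398, 116.4, 104.9 and 214.3 CPM in C57BL6, PdgfrbGFP, Cspg4dsRED and Acta2GFP, which overlapped cluster 3 through the C57BL6 sum. Cluster 8 kept a measurable level in each strain, 232.4, 220.7, 114.3 and 181.9 CPM in the same order. Cluster 7 had 14.7, 2.46 and 11.8 CPM in PdgfrbGFP, Cspg4dsRED and Acta2GFP. Entpd2 shares 612 exon bases on the same strand with Npdc1, whose sums were 9.81 to 155.3 CPM in cluster 7 and 227.02 to 347 CPM in cluster 8, so reads of that stretch are uncertain. Per kb of merged exons the level of Entpd2 was the highest of the 10 genes in each fibroblast cluster, for example 503 CPM per kb in cluster 2, where Enpp2 was next with 67.2.

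Nt5e, whose product makes adenosine, was low and scattered. Its mean was 73.4 ± 89.3 CPM (SD, n = 4) in cluster 1, 50.4 CPM in cluster 3, and 6.57 to 10.1 CPM in clusters 2, 4 and 5. In cluster 1 it ran from 0.124 CPM in PdgfrbGFP over 43.8 CPM in C57BL6 and 46.1 CPM in Acta2GFP to 203.6 CPM in Cspg4dsRED, a sum of 3 cells. Neighbours in the order of the fibroblast clusters overlapped throughout. Mural means were 0.207 to 0.316 CPM, and in the highest of them, cluster 7, 1 Cspg4dsRED cell held 12 of the 14 counts of its strain.

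Enpp1, Enpp2 and Enpp3 each had a pattern of its own. Enpp3 was mainly a fibroblast gene, with means of 102.7, 122.4 and 131.7 CPM for clusters 2, 4 and 5 and 0.690 to 1.58 CPM in the mural clusters. Cluster 3 had 38.3, 0.925 and 125.1 CPM in C57BL6, PdgfrbGFP and Acta2GFP, and the PdgfrbGFP sum, 2 counts in 7 cells, lay within the mural range. In cluster 1 it had 6.08, 22.5, 0 and 33.8 CPM in C57BL6, PdgfrbGFP, Cspg4dsRED and Acta2GFP. Enpp1, a main source of extracellular pyrophosphate, was present on both sides: its mean was 203.8 ± 195.1 CPM (SD, n = 4) in cluster 1 and 121.97 ± 147.2 CPM (n = 3) in cluster 6, and all neighbours in the order of its means overlapped. Its highest sum, 495 CPM in cluster 1 of Cspg4dsRED, took 377 of 401 counts from 1 cell. Enpp2 was found in the fibroblasts and in part of cluster 6. Its means ran from 203.1 CPM in cluster 1 to 565 CPM in cluster 5, and cluster 6 had 471, 112.2 and 801 CPM in C57BL6, Cspg4dsRED and Acta2GFP. These 3 sums hold 3, 33 and 3 cells. The median cell of cluster 6 had no read of Enpp2, and 30.8% of its cells had 10 counts or more. Cluster 7 had 4.91 to 7.93 CPM and cluster 8 had 0.30 to 31.5 CPM of Enpp2, and in the highest of the latter, C57BL6, 1 cell held 85.3% of the counts. Alpl, the phosphatase gene, had means of 38.1 to 101.2 CPM in clusters 1 to 6 with overlapping ranges, and 0.563 CPM in cluster 7. In cluster 6 the Alpl sums ran from 1.96 CPM in C57BL6 to 154.4 CPM in Acta2GFP, each of 3 cells. Its mean of 7.35 CPM in cluster 8 came from PdgfrbGFP (26.7 CPM), where 1 cell held 96.8% of the counts.

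The receptor genes were divided between the cell groups. P2ry1, which encodes the Gq-coupled ADP receptor P2Y1, was led by cluster 2, with 97, 179.2, 262.97 and 184.8 CPM in C57BL6, PdgfrbGFP, Cspg4dsRED and Acta2GFP. Clusters 3, 5 and 4 followed with means of 106.9, 79.4 and 52.96 CPM and ranges that overlapped their neighbours, cluster 1 had 12.6 CPM, and mural means were 0.568 to 0.796 CPM. P2ry1 shares 992 exon bases with the antisense gene Gm37035 (46.3 to 99.9 CPM in cluster 2), and as Smart-seq2 does not mark strand, reads of that stretch cannot be assigned to either gene. The same holds for 345 exon bases that Enpp2 shares with Gm26684 on the opposite strand. P2rx1, which encodes the ATP-gated channel P2X1 of smooth muscle, was highest in clusters 6 and 7. It had 0, 52.7 and 145.7 CPM in cluster 6 of C57BL6, Cspg4dsRED and Acta2GFP and 0, 44.1 and 17.6 CPM in cluster 7 of PdgfrbGFP, Cspg4dsRED and Acta2GFP. The 145.7 CPM came from 1 of 3 cells.

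P2ry14, which encodes the Gi-coupled receptor P2Y14 for UDP-glucose and UDP, was high in cluster 8, but not in each strain. C57BL6, PdgfrbGFP and Cspg4dsRED had 1209, 890 and 368 CPM, and Acta2GFP had 0.149 CPM. The last value was 1 read in 15 cells, while 81.8%, 78.2% and 65.5% of the cells of the first 3 strains had a read. The Acta2GFP cells of cluster 8 also stood apart in pericyte and smooth muscle genes. Kcnj8 was 665 CPM there and 4063 to 6605 CPM in the other strains, Abcc9 was 713 against 2354 to 4228 CPM, and Cspg4 was 48.5 against 589 to 1161 CPM. Acta2 was 2340 against 136.1 to 945 CPM and Myh11 was 664 against 5.18 to 36.3 CPM. The part of these differences in the low P2ry14 was not tested. In cluster 7, P2ry14 was 185.5, 23.4 and 24.4 CPM in PdgfrbGFP, Cspg4dsRED and Acta2GFP. Of the 9 PdgfrbGFP cells, 1 held 94.4% of those counts, and without it the sum was 12.1 CPM. Means in clusters 1 to 6 were 0.712 to 3.98 CPM.

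Single reads of these genes were common in cells of clusters with low sums, and on most plates they followed the layout of the wells. On the PdgfrbGFP plate a P2ry14 read was found in 54.2% of the fibroblast wells whose row and column held more cluster 8 reads of P2ry14 than the median well, and in 19.5% of the others. On a C57BL6 plate these shares were 39.7% and 13.01%. For Entpd1 in wells outside clusters 6 and 7 of the PdgfrbGFP plate they were 20.98% and 3.77%, and for Enpp2 in its mural wells 48.4% and 10.9%. The Cspg4dsRED plate went the other way for Entpd1 (37.04% and 57.1%), and on the Acta2GFP plate the Entpd1 shares were 90.9% and 66.7%. Presence was therefore counted as 10 reads or more, a limit chosen after seeing the data, with any read given beside it. On the Acta2GFP plate 26 wells outside clusters 6 and 7 still reached it for Entpd1, and the part of the well layout in the Entpd1 sums of Acta2GFP fibroblasts was not tested. Intervals are 95% Wilson intervals. They and the limits cover counting error only. They leave out the spread between strains, whose cells are pooled, and amplified reads may come from 1 molecule.

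**Figure D2:**
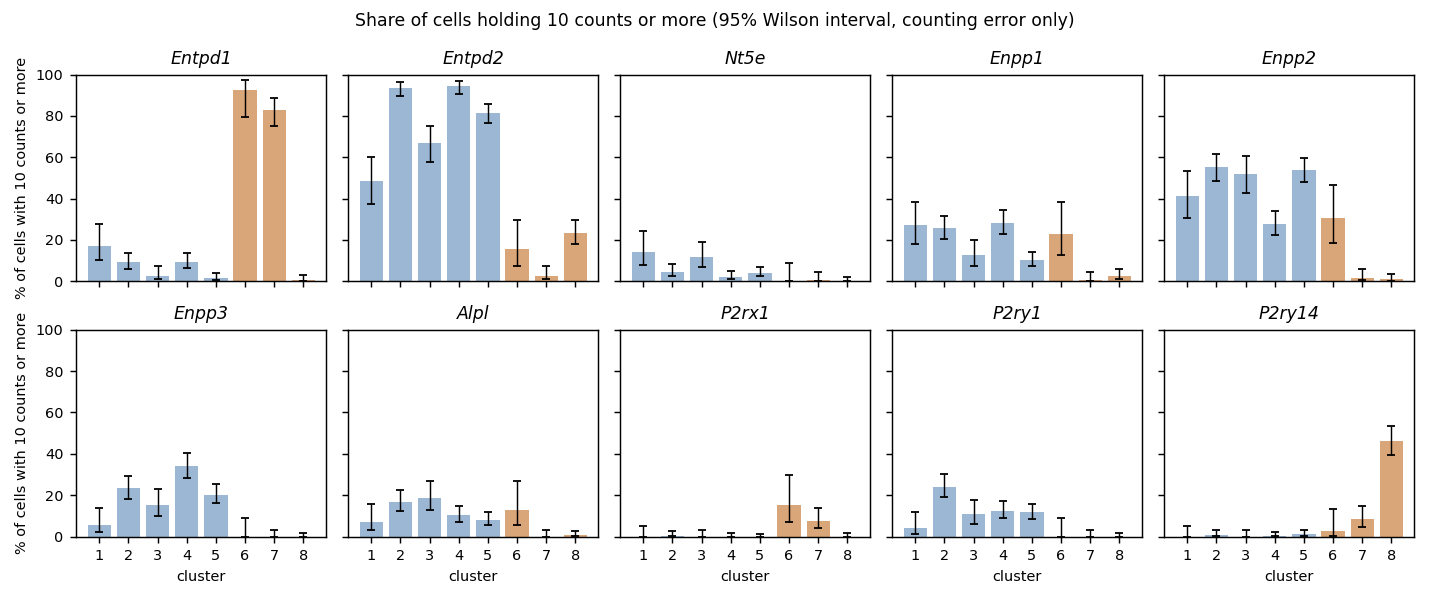
Percent of cells with 10 counts or more of each gene (panels) in clusters 1 to 8, bars from 0 with 95% Wilson intervals; fibroblast clusters and mural clusters differ in colour. Entpd1 reaches 92.3% in cluster 6 and 83.1% in cluster 7 but 0.510% in cluster 8, where P2ry14 reaches 46.4%. Cells of all strains are pooled.

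Counted this way, Entpd1 was present in 36 of 39 cells of cluster 6 (92.3%, interval 79.7 to 97.3%) and in 98 cells of cluster 7 (83.1%, 75.3 to 88.8%), but in 1 cell of cluster 8 (0.510%, 0.0901 to 2.83%), although 21.9% of cluster 8 cells had some read of it. Such shares depend on depth. With each cell thinned to 50000 counts, 8.72% of cluster 8 cells had some read of Entpd1, and 79.5%, 78.6% and 0% of clusters 6, 7 and 8 had 10 or more. Entpd2 was nearly uniform in cluster 4 (94.4%) and cluster 2 (93.6%), less so in cluster 5 (81.5%) and cluster 3 (66.96%), and present in 48.6% of cluster 1. Enpp2 was present in 55.3%, 53.8% and 51.8% of clusters 2, 5 and 3, and in 27.9% of cluster 4 (22.5 to 33.98%). By strain, in the order C57BL6, PdgfrbGFP, Cspg4dsRED and Acta2GFP, the Enpp2 share was 22.8%, 18.9%, 46.2% and 50% in cluster 4 and 50%, 46.9%, 87.5% and 76.3% in cluster 2. After thinning, the Enpp2 shares were 45.2%, 48.6%, 45.5% and 24.03% for clusters 2, 5, 3 and 4. Enpp3 and P2ry1 passed the limit in 22.8% and 14.1% of fibroblasts and in 0 of 353 mural cells (interval 0 to 1.08% for each gene). Some read of Enpp3 and of P2ry1 was found in 13.3% and 13.9% of the mural cells. Nt5e passed in 50 of the 926 fibroblasts (5.40%), most often in cluster 1 (14.3%) and cluster 3 (11.6%).

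Entpd2 in cluster 8 came from a minority of cells. Of these cells 88.8% had a read of Entpd2, but the median cell had 3 counts, and 46 cells (23.5%, 18.1 to 29.9%) had 10 or more, with a median of 550 CPM among them. They came from each strain: 13 of 33 cells in C57BL6, 20 cells in PdgfrbGFP, 7 of 29 in Cspg4dsRED and 6 of 15 in Acta2GFP. Of the 6 Acta2GFP cells 4 were just above the limit, with 11 to 15 counts, and the other 2 had 302 and 1273 CPM, 1 of them with 76.6% of the strain's counts. Over all strains 40 of the 46 cells had 20 counts or more, and after thinning 18.5% of cluster 8 cells had 10 or more. Fibroblast markers summed to 960 to 3334 CPM in this cluster, and their part in the Entpd2 level was not tested. P2ry14 divided the cluster too, with 91 cells (46.4%, 39.6 to 53.4%) at 10 counts or more and a median of 1382 CPM among them. By strain these were 23 of 33 cells in C57BL6, 54 cells in PdgfrbGFP and 14 of 29 in Cspg4dsRED. No Acta2GFP cell had more than 1 count of P2ry14, and the pooled interval does not cover this spread between strains. Both genes passed in 21 cells, so P2ry14 passed in 45.7% of the Entpd2 cells and in 46.7% of the other cells. Within C57BL6 these shares were 76.9% and 65%, within PdgfrbGFP 45% and 45.5%, and within Cspg4dsRED 28.6% and 54.5%, the last from 7 Entpd2 cells.

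**Figure D3:**
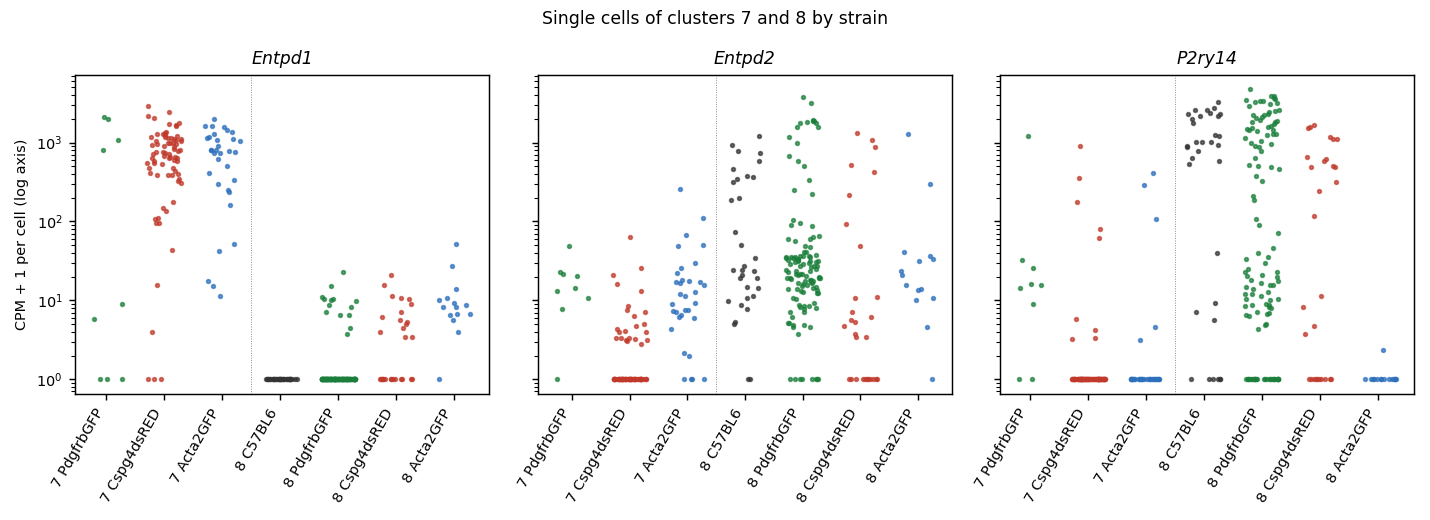
CPM + 1 per cell on a log axis for Entpd1, Entpd2 and P2ry14; each point is 1 cell of cluster 7 or 8, grouped by strain, with horizontal jitter for display. Entpd1 reaches 10 counts in 98 cells of cluster 7, among them 4 of the 9 PdgfrbGFP cells, and in 1 cell of cluster 8, whereas Entpd2 and P2ry14 reach it in 46 and 91 cells of cluster 8. Of the 46 Entpd2 cells 6 have 11 to 15 counts, at 14.7 to 95.9 CPM. For P2ry14 no Acta2GFP cell of cluster 8 has more than 1 count.

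Fibroblasts were set against mural cells to ask which of these genes part the main cell groups. Of 15117 genes tested 896 (5.93%) had an edgeR adjusted p under 0.05, and of the 10 purinergic genes 6 had. Entpd2, Nt5e, Enpp1, Enpp3 and P2ry1 were higher in fibroblasts, as were 3.47% of all genes tested, and P2ry14 was lower, as were 2.45%. The median log2 fold change was 2.79 over the 10 genes and -0.02 over all genes tested. As the 10 genes were chosen with earlier results of these data known, neither the 6 nor this median tests the family. In sums of this kind, fewer cells of a type and less RNA per cell cannot be told apart.

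P2ry1 was 61.1, 83.5, 157.4 and 92.2 CPM in fibroblasts of C57BL6, PdgfrbGFP, Cspg4dsRED and Acta2GFP, and 1.16, 0.875, 0.170 and 1.12 CPM in their mural cells. The groups did not overlap (log2 fold change 6.89, SE 0.72, edgeR adjusted p = 0.00056). Enpp3 was almost as one-sided, with 84.8, 127.1, 89.9 and 99.1 CPM against 1.39, 1.21, 0.0848 and 0.927 CPM in the same order (log2 6.82, SE 0.81, edgeR adjusted p = 0.0011). Nt5e had 17.6, 9.57, 33.4 and 16.98 CPM against 0.232, 0.0972, 0.480 and 0.195 CPM (log2 6.21, SE 0.99, edgeR adjusted p = 0.0054), and 14 mural cells in all had a read of it.

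Entpd2 differed less steeply: fibroblasts had 979, 1098, 973 and 613 CPM and mural cells 221.2, 200.3, 33.8 and 67.2 CPM in C57BL6, PdgfrbGFP, Cspg4dsRED and Acta2GFP, with no overlap. The difference was 6.87-fold (log2 2.78, SE 0.58, edgeR adjusted p = 0.020). It did not pass when any 1 of the 4 strains was left out (edgeR adjusted p = 0.067, 0.069, 0.0503 and 0.073 on leaving out C57BL6, PdgfrbGFP, Cspg4dsRED or Acta2GFP). Enpp1 was 78.5, 64.5, 133.9 and 108.9 CPM in fibroblasts against 35.7, 16.3, 13.5 and 33.6 CPM. That 3.83-fold difference (log2 1.94, SE 0.43, edgeR adjusted p = 0.025) did not pass in the blocked fit (edgeR adjusted p = 0.061) or without any 1 of the strains (0.061 to 0.11). P2ry14 stood opposite, with 1.49, 2.03, 1.52 and 2.13 CPM in fibroblasts against 1048, 820, 84.3 and 14.3 CPM in mural cells (log2 -8.14, SE 1.3, edgeR adjusted p = 0.0053). In the blocked fit P2ry14 was at log2 -6.97 (edgeR adjusted p = 0.049).

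The other 4 genes did not pass. Entpd1 was lower in fibroblasts of each strain, at 18.3, 9.89, 48.04 and 51.7 CPM against 36.5, 87.5, 611 and 547 CPM, but the groups overlapped (log2 -3.35, SE 0.88, edgeR adjusted p = 0.053). In the fit blocked by strain it passed (log2 -2.87, edgeR adjusted p = 0.036). Enpp2 had 348, 368 (PdgfrbGFP), 282.6 and 395 CPM against 82.7, 2.33, 38.3 and 80.3 CPM (log2 2.80, SE 0.77, edgeR adjusted p = 0.064). It passed without PdgfrbGFP (edgeR adjusted p = 0.028), but not without any 1 of the other strains (0.16 to 0.19). Without clusters 1 and 6, a choice made after seeing the data, Enpp2 passed (log2 4.93, edgeR adjusted p = 0.0032) and Enpp1 did not (edgeR adjusted p = 0.13), and 6 genes passed again. Alpl (log2 2.81, SE 0.80, adjusted p = 0.074) and P2rx1 (log2 -4.02, SE 2.33, adjusted p = 0.46) had wide spreads between strains in the same edgeR fit.

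**Figure D4:**
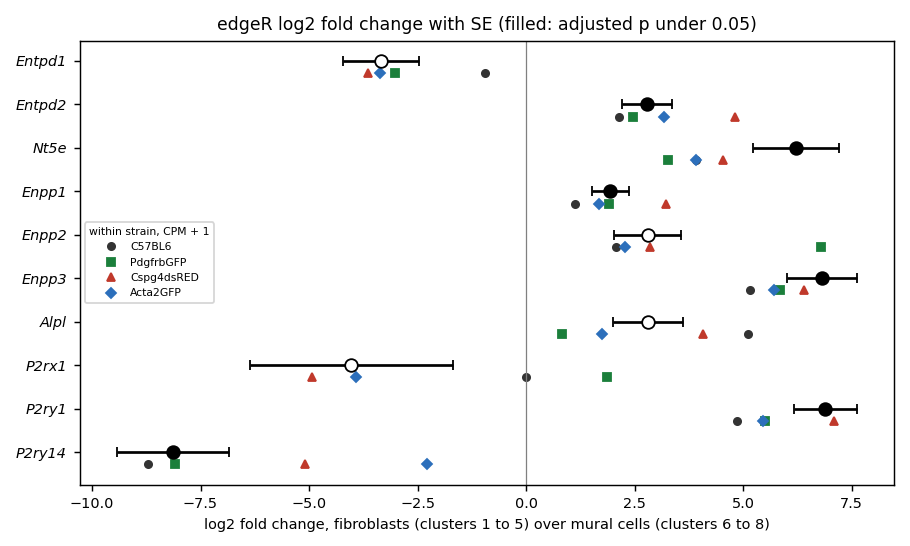
edgeR log2 fold change of fibroblasts over mural cells with its SE (large circles, filled where the adjusted p was under 0.05), and the log2 ratio of CPM + 1 within each strain (coloured symbols). P2ry14 at -8.14 and P2ry1 at 6.89 lie at the ends, and the 4 strains have 1 sign for each gene but P2rx1.

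Within the mural cells, cluster 8 was compared with cluster 7 in the 3 strains that had 3 cells or more of both. Of 11867 genes tested 23 (0.194%) passed, 10 (0.0843%) as higher and 13 (0.11%) as lower in cluster 8 (12 and 33 with DESeq2's size factors in edgeR), and of the 10 genes Entpd1 did, as lower. It was 1.02, 2.70 and 8.66 CPM in cluster 8 against 874, 878 and 832 CPM in cluster 7 of PdgfrbGFP, Cspg4dsRED and Acta2GFP. It fell by 7.77 on the log2 scale (SE 0.94, edgeR adjusted p = 0.012), and did not pass without PdgfrbGFP, whose 9 cells of cluster 7 included 4 with 10 counts or more (edgeR adjusted p = 0.13). Entpd2 went the other way in 3 of 3 strains, from 14.7, 2.46 and 11.8 CPM in cluster 7 to 220.7, 114.3 and 181.9 CPM in cluster 8. The groups did not overlap, but the test did not pass (log2 4.06, SE 1.12, edgeR adjusted p = 0.23). P2ry14 was higher in cluster 8 in PdgfrbGFP and Cspg4dsRED and lower in Acta2GFP (log2 2.21, SE 1.56, edgeR adjusted p = 0.95). Nt5e, Enpp3, Alpl, P2rx1 and P2ry1 did not reach the count filter in this comparison.

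Cluster 6 was set against clusters 7 and 8. In edgeR 4 of 12117 genes (0.033%) passed, with 695 at an unadjusted p under 0.05, and 0 of the 10 genes passed, with 3 of them at an unadjusted p under 0.05. Enpp2 was 471, 112.2 and 801 CPM in cluster 6 against 30.6, 5.86 and 8.69 CPM in C57BL6, Cspg4dsRED and Acta2GFP, without overlap (log2 5.11, SE 1.07, edgeR adjusted p = 0.18). P2ry14 was 1.96, 9.99 and 0 CPM against 1188, 116.9 and 15.7 CPM (log2 -6.64, SE 1.76, edgeR adjusted p = 0.39). In the blocked fit both passed (Enpp2 log2 4.95, edgeR adjusted p = 0.00075, and P2ry14 log2 -6.57, edgeR adjusted p = 0.0010). With 1 strain left out the edgeR adjusted p was 0.16 to 0.95 for Enpp2 and 0.0014 to 0.74 for P2ry14. Over all alternatives the log2 fold change was 3.89 to 6.21 for Enpp2 and -9.41 to -3.61 for P2ry14. DESeq2 passed Enpp2, P2ry14 and Alpl. Of the cluster 6 sums 2 rest on 3 cells each, and fibroblast markers in cluster 6 were at 3108 to 12491 CPM. Their part in the Enpp2 level was not tested.

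Cluster 1 differed from clusters 2 to 5 in Entpd2. Of 13201 genes tested 1.33% passed (0.561% higher and 0.773% lower in cluster 1), and of the 10 genes 1 did, as lower. Entpd2 was 398, 116.4, 104.9 and 214.3 CPM in cluster 1 and 1001, 1221, 1045 and 725 CPM in clusters 2 to 5, strain by strain as above, lower in 4 of 4 strains without overlap. It fell by 2.26 on the log2 scale (SE 0.43, edgeR adjusted p = 0.034). In the fit blocked by strain the edgeR adjusted p was 0.063, and on leaving out PdgfrbGFP, Cspg4dsRED or Acta2GFP it was 0.19, 0.11 and 0.16. Enpp3 and P2ry1 were also lower in cluster 1 in 4 of 4 strains (log2 -2.76, SE 0.92, adjusted p = 0.27, and log2 -3.17, SE 1.15, adjusted p = 0.34 in edgeR). Pdgfra, the gene of a fibroblast receptor used in the sort, was 82.7 to 194.9 CPM in cluster 1 and 385 to 702 CPM in clusters 2 to 5.

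Among clusters 2 to 5 each was compared with the others. In edgeR 0 genes (0%) passed in each of these 4 comparisons, although 641, 895, 670 and 630 genes had an unadjusted p under 0.05 for clusters 2, 3, 4 and 5, and DESeq2 passed 1.22%, 2.61%, 1.3% and 0.765% of the genes. The purinergic genes with an unadjusted p under 0.05 follow. P2ry1 was higher in cluster 2 in 4 of 4 strains, at 97, 179.2, 262.97 and 184.8 CPM against 52.2, 67.3, 102.2 and 49.4 CPM (log2 1.45, SE 0.38, edgeR adjusted p = 0.43), and DESeq2 passed it (adjusted p = 0.044). Enpp2 was higher in cluster 5 in C57BL6 and PdgfrbGFP, at 595 and 535 CPM against 245.8 and 273.4 CPM (log2 1.20, SE 0.22, edgeR adjusted p = 1.0), and DESeq2 passed this difference too (adjusted p = 0.0012). Enpp2 was lower in cluster 4 in 4 of 4 strains, at 137.4, 126.8, 274.9 and 298 CPM against 441, 497, 319 and 489 CPM (log2 -1.07, SE 0.32, edgeR adjusted p = 0.59). P2ry1 was lower there as well in 4 of 4 strains (log2 -1.44, SE 0.63, edgeR adjusted p = 1.0). Entpd2 was lower in cluster 3 in 3 of 3 strains (log2 -1.06, SE 0.34, edgeR adjusted p = 0.42). Enpp1 was lower in cluster 5 in both strains (log2 -0.83, SE 0.30, edgeR adjusted p = 1.0).

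The rest of the pathway was followed through 57 further genes. For fibroblasts against mural cells 35 of them reached the count filter, 6 were higher in fibroblasts, 0 were lower and 29 did not pass, where 3.47% of all genes tested were higher and 2.45% lower. Their median log2 fold change was 1.06, and these genes too were chosen with earlier results of these data known. Adora1, the Gi-coupled adenosine A1 receptor gene, was the 1 of 3 tested adenosine receptors to pass, at 23.2 ± 14.98 CPM (SD, n = 4) in fibroblasts against 0.203 ± 0.110 CPM on the mural side (log2 6.73, edgeR adjusted p = 0.0055). P2rx4, the gene of an ATP-gated channel, was 109.02 ± 20.1 CPM against 24.3 ± 7.46 CPM and was the 1 of 7 other P2 receptors tested that passed (log2 2.15, edgeR adjusted p = 0.0082). Panx1, whose product forms a channel for ATP release, and Adk, whose product phosphorylates adenosine inside the cell, passed among 7 genes of nucleotide release and adenosine uptake (log2 4.15 and 1.76, edgeR adjusted p = 0.038 and 0.040). On the autotaxin side, Lpar1, a receptor gene for lysophosphatidic acid, was 325 ± 44.96 CPM against 13.7 ± 9.70 CPM (log2 4.58, edgeR adjusted p = 0.0011). Plpp1, which encodes a lipid phosphate phosphatase that degrades it, was 448 ± 46.6 CPM against 149.9 ± 73.6 CPM (log2 1.59, edgeR adjusted p = 0.031). Adk and Plpp1 did not pass in the blocked fit (edgeR adjusted p = 0.073 and 0.060). Plpp1 did not pass without any 1 of the strains (edgeR adjusted p = 0.062 to 0.17), and neither Panx1 (0.087, 0.13 and 0.19) nor Adk (0.15, 0.17 and 0.17) passed without C57BL6, PdgfrbGFP or Acta2GFP. Without Acta2GFP, P2rx4 and Adora1 did not pass (edgeR adjusted p = 0.054 and 0.057). Of 8 other ectonucleotidases and 4 genes of pyrophosphate and phosphate handling 0 passed, and in the other 7 comparisons 0 of the 57 genes passed in edgeR.

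The genes whose pattern over the 27 sums of cluster and strain was most like each of the 10 are a description by Pearson's r of log2(CPM + 1), taken over 10326 genes whose mean was at least 10 CPM. The sums share plates and libraries. Enpp3 was nearest to Serpina3n (r = 0.985), Lrrn2 (0.963) and Gsta3 (0.919). Among the genes most like P2ry14 were Slc16a12 (r = 0.910) and Tmem273 (0.875). P2ry1 was nearest to its overlapping antisense gene Gm37035 (r = 0.970), followed by Aldh1a2 (0.889) and Thsd7a (0.888). Entpd2 was nearest to Gm8292 (0.928), Ang (0.927) and Cd302 (0.923), and P2rx1 to Corin (0.900), Lgr6 (0.899) and Plin4 (0.882). Among the genes most like Enpp2 were Itgbl1 (0.884) and Lum (0.873), and Alpl was nearest to Nid2 (0.852), Fam198b (0.802) and Gda (0.794). Entpd1 was nearest to Hspb6 (0.813), Eif4g2 (0.804) and Dstn (0.797), Enpp1 to Gm44503 (0.780), Ccpg1 (0.774) and Tenm3 (0.764), and Nt5e to Stk32b (0.758), Tamm41 (0.728) and Myo7a (0.723).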

How the data were processed

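Single cells of the mouse heart were sequenced by Smart-seq2. The authors deposited raw read counts per gene and cell, obtained by mapping to GRCm38 (mm10) and counting with featureCounts, per the labels without versions, with 92 ERCC spike-ins (1.82% of counts) that were removed here. Replicates were not pooled. Cells were summed per strain and cluster, with at least 3 cells a sum, and levels are counts per 1000000 summed counts (CPM). Between genes, CPM per kb of merged GENCODE M21 exons was used. The authors gated doublets in the sort and removed cells with very many genes; no further cell was removed here. Comparisons were fitted with edgeR 4.0.16 (R 4.3.3): TMM, filterByExpr with a minimum count of 10, quasi-likelihood F test and Benjamini-Hochberg adjustment over all genes tested. Alternatives were DESeq2 1.42.0, its size factors in edgeR, no filter, strain as block, leaving out each strain, 10 cells or more per sum, cells thinned to 50000 counts and plates as replicates; shares of cells were also recomputed on thinned cells. The fits were tested on simulated data. Both sides of a comparison came from the same strains, so the sums are paired by strain. The main edgeR fit left this pairing out, and only the fit with strain as block took it in. The C57BL6 mural cells lay on 1 of the plates of that strain. The deviations of same-strain sums correlated at 0.143 to 0.212 for fibroblasts and mural cells, and from 0.0461 to 0.237 in the other comparisons. Named genes are the 10 members, pathway genes that passed in a comparison, and the 3 most alike genes of each member, of which 2 are not reported here. Members and gene lists were chosen with earlier results of these data known.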

Additional observations from a re-analysis of the deposited data

Results flagged for a closer look

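In 40 groups of 4 strains (each gene in clusters 1, 2, 4 and 8), 6 groups had 1 strain far from the other 3 by Dixon's ratio at its 95% limit. For normally distributed values this limit flags about 1 in 20 groups. CPM cannot fall below 0, and each flagged value was the highest of its 4, so the 6 cannot be read against that rate. Enpp1 in cluster 1 was 495 CPM in Cspg4dsRED and 82.3 to 132.8 CPM in the other strains. Enpp1 in cluster 8 was 90.7 CPM in Acta2GFP, of 15 cells, against 1.36 to 12.3 CPM. Alpl in cluster 1 was 135.9 CPM in C57BL6 against 0 to 15.2 CPM, and Alpl in cluster 8 was 26.7 CPM in PdgfrbGFP against 0.450 to 1.36 CPM. P2rx1 in cluster 2 was 12.2 CPM in PdgfrbGFP, all from 1 of 49 cells, against 0 to 0.546 CPM. P2ry14 in cluster 1 was 4.34 CPM in PdgfrbGFP against 0 to 0.507 CPM.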

How the results depend on the processing

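For fibroblasts against mural cells, the count of purinergic genes that passed was 4 to 9 over all alternatives, within 1.5 times the 6 reported. Nt5e, Enpp3, P2ry1 and P2ry14 passed under each of them. With strain as a replicate block 6 passed for fibroblasts against mural cells, 0 for cluster 1, 2 for cluster 6, 1 for cluster 8 and 0 for clusters 2, 3, 4 and 5. The block changed no call of the 10 genes beyond those given with the results. It moved the median log2 fold change of all genes to 0.20 for fibroblasts against mural cells, -0.47 for cluster 1, -1.08 for cluster 6, 0.34 for cluster 8, -0.84 for cluster 3 and -0.11 for cluster 2. DESeq2's size factors in edgeR moved it from -0.32 to -0.17 for cluster 6, from 0.18 to 0.04 for cluster 8 and from -0.13 to 0.04 for cluster 3, and turned the direction of 1 of the 10 genes, Enpp2 in cluster 3 (from -0.14 to 0.02). Leaving out 1 strain gave 0 to 1 gene for cluster 1, for cluster 6 and for cluster 8. The share of all genes that passed moved by over 1.5 times under several settings: for fibroblasts against mural cells it was 12.7% by DESeq2, 2.58% without filter and 2.66 to 3.91% with 1 strain left out, for cluster 1 5.22% by DESeq2, 0.53% without filter, 0.748% with 10 cells or more per sum, 0.742% with the block and 0.201 to 0.748% with 1 strain left out (split as 0.463% higher and 1.46% lower with plates as replicates, and 0.649% and 1.19% with cells thinned), for cluster 6 2.81% by DESeq2, 0.418% without filter, 0.168% with cells thinned, 0.883% with the block and 0 to 0.495% with 1 strain left out, and for cluster 8 3.2% by DESeq2, 0.855% without filter, 0.691% with the block, 0.379% with DESeq2's size factors, 0 with 10 cells or more per sum and 0 to 0.987% with 1 strain left out. For clusters 2 to 5 it was 0 in most other edgeR fits and at most 0.236% (cluster 3 with the block) in the rest. Of the 10 genes DESeq2 passed 2 for cluster 1, 3 for cluster 6, 2 for cluster 8, 1 for cluster 2 and 1 for cluster 5. Without the count filter 2 passed for cluster 6. With 10 cells or more per sum 0 passed for cluster 1 and 0 for cluster 8, as each then has fewer strains. For the other settings the cause was not tested. Of 69 pairs of gene and comparison, 16 turned direction in some fit, and these passed in 0 fits: 5 for cluster 2, 3 for cluster 3, 4 for cluster 4 and 1 for cluster 5, with reported log2 differences within 0.98, 2 for cluster 1 and 1 for cluster 8. Entpd1 in cluster 1 was -0.82 to 0.52 on the log2 scale with 1 strain left out (0.52 without Cspg4dsRED, also with 10 cells or more) and 0.25 with plates as replicates, P2ry14 in cluster 1 was -2.93 to 0.22 with 1 strain left out (0.22 without Acta2GFP), and Enpp1 in cluster 8 was -1.98 to 5.26 with 1 strain left out (-1.98 without Acta2GFP). No fit could be made for cluster 6 with 10 cells or more per sum (1 strain left) or for cluster 5 with a strain left out (2 strains). In all, named genes lost a call 33 times and gained one 22 times over these settings. Shares of cells with a read moved beyond their intervals in all but 18 cases after thinning, with the limit of 10 counts, or both. Sums of 3 cells and reads without molecular identifiers limit the precision.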
